A study of Mus musculus with 16 samples.

Results

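The 45 genes described here build, start and feed DNA replication: the origin recognition subunits and loading factors, the MCM helicase and its activators, the polymerases with their clamp and clamp loader, single-strand binding and lagging-strand proteins, the enzymes that supply nucleotides, and the cyclin E and E2F1 genes that open S phase. They were taken by name from the array's annotation, each through a probe set that carries 1 gene symbol. Where a gene had several such probe sets, the one with the highest mean over all arrays stood for it. All 45 were measured, of 12393 genes in all, and 25 of them had more than 1 probe set.

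The samples were mouse J1 embryonic stem (ES) cells, a pluripotent line, grown on gelatin in medium with serum and LIF, and RNA was hybridised to Affymetrix Mouse 430A 2.0 arrays. The knockdown arm held 2 Tgif1 KD arrays, from cells in which the TGIF1 homeodomain repressor was knocked down, and 2 arrays of the control knockdown, shControl. The overexpression arm held 4 arrays labelled Tgif1 OE and 4 labelled Tgif2 OE, from cells overexpressing TGIF1 or its close relative TGIF2, and 4 BirA control arrays, from cells overexpressing the biotin ligase BirA. No label says that the replicates came from separate cultures, and p-values therefore speak of the spread among these arrays, which may be technical. A Tgif2 knockdown is named in the study's design and was not analysed here.

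Before each S phase the origin recognition complex, Cdc6 and Cdt1 load the MCM helicase onto origins, and geminin, the product of Gmnn, blocks Cdt1 from loading it again. Cyclin E with CDK2 and the E2F factors then drive entry into S phase, Cdc45 and GINS activate the helicase, and DNA polymerase alpha with primase starts each new strand. ES cells are known for a short G1 phase, a large share of cells in S phase and high cyclin E activity.

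Tgif1 signal was 7.46 and 7.12 log2 on the Tgif1 KD arrays, against 10.71 and 10.66 log2 on the shControl arrays, which is 9.51% of the control signal. The overexpression labels did not show in the probe sets of the genes they name. Tgif1 was lower on the arrays labelled Tgif1 OE than on BirA control arrays (-0.58 ± 0.07 log2, limma SE, adjusted p = 5.52e-05), and Tgif2 on the arrays labelled Tgif2 OE gave 0.11 ± 0.07, which did not pass (adjusted p = 0.208). Whether these probe sets reach the introduced transcripts was not tested. The overexpression arrays also split by number: deviations from the group mean ran together among replicates 1 and 2 and among replicates 3 and 4 of all 3 groups. They ran against each other between these pairs, which follows from the first, as deviations cancel within each group. The columns of the 4 Tgif2 OE arrays had medians 0.08 log2 above those of the other 12 arrays.

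Of the 45 replication genes, 16 fell and 3 rose on knockdown of Tgif1, and 26 did not pass the threshold (adjusted p under 0.05, with p-values adjusted over all 12393 genes). Of all genes, 25.4% passed, 12.9% as lower and 12.5% as higher; of the replication genes, 42.2% passed, 35.6% as lower. The median change of the 45 was -0.16 log2, against -0.05 for all genes, and 32 of the 45 were below 0 (71.1%, against 57% of all genes). In such bulk samples, fewer cells in S phase and less of these RNAs per cell cannot be told apart.

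Of the 15 genes of the MCM helicase and its loading, 6 fell and none rose. Cdc6, which brings the helicase to origins, had 9.77 and 9.78 log2 on Tgif1 KD arrays, against 10.44 and 10.30 on shControl arrays. Mcm2, a helicase subunit, had 10.61 and 10.42 on Tgif1 KD arrays, against 11.11 and 11.08 on shControl arrays. Both Tgif1 KD arrays lay below both shControl arrays for each gene. The changes were -0.60 ± 0.09 log2 for Cdc6 (adjusted p = 1.10e-04) and -0.58 ± 0.08 for Mcm2 (adjusted p = 1.07e-04), which leaves 66.0% and 66.8% of the control signal. A second Mcm2 probe set gave -0.48 ± 0.27, which did not pass (adjusted p = 0.230). Orc1, the large subunit of the origin recognition complex, fell by 0.44 ± 0.07 log2 (adjusted p = 4.12e-04), and Orc3, another subunit, by 0.30 ± 0.08 (adjusted p = 0.00796). Mcm4, a second helicase subunit, fell by 0.28 ± 0.07 (adjusted p = 0.0120). Another Mcm4 probe set gave -0.27 ± 0.20, which did not pass (adjusted p = 0.361 over all probe sets).

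Gmnn, which encodes the inhibitor of loading, had 11.75 and 11.67 log2 on Tgif1 KD arrays, against 11.92 and 11.98 on shControl arrays, with no overlap and a change of -0.24 ± 0.07 (adjusted p = 0.0204). Its target Cdt1 had 12.69 and 12.67 on Tgif1 KD arrays, against 12.66 and 12.66 on shControl arrays. That difference, 0.02 ± 0.08, did not pass (adjusted p = 0.870). Changes of the other 8 loading genes, which also did not pass, lay between -0.46 for Mcm5 and 0.07 for Orc4. A second probe set of Mcm6, one of these 8, did pass (-0.30 ± 0.08, adjusted p = 0.0157 over all probe sets). Other probe sets of Orc2, Orc4, Mcm3 and Mcm7 did not. The Mcm5 value carried a large error (SE 0.21, adjusted p = 0.122), and the spread over all 5 groups enters this error.

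Among the 3 helicase activators, Gins1, a GINS subunit, fell by 0.28 ± 0.08 log2 (adjusted p = 0.0248), while Mcm10 (-0.20 ± 0.07, adjusted p = 0.0597) and Cdc45 (-0.04 ± 0.17) did not pass.

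The polymerase genes did not move as one. Of 14 genes for polymerases, primase, the clamp and its loader, 4 fell, 1 rose and 9 did not pass. Pola2, the regulatory subunit of DNA polymerase alpha, had 8.82 and 8.84 log2 on Tgif1 KD arrays, against 9.47 and 9.57 on shControl arrays, a change of -0.69 ± 0.09 (adjusted p = 3.02e-05), or 61.9% of the control signal. Its second, dim probe set gave 0.15 ± 0.18 (adjusted p = 0.612). Pola1, the catalytic subunit of the same enzyme, did not pass (-0.04 ± 0.09, adjusted p = 0.793). Prim1, the catalytic subunit of the primase bound to it, rose by 0.42 ± 0.07 (adjusted p = 4.24e-04), and its second probe set gave 0.28 ± 0.08. The catalytic subunits of the polymerases that extend the strands fell: Pold1 by 0.39 ± 0.12 (adjusted p = 0.0227) and Pole by 0.37 ± 0.13 (adjusted p = 0.0478). The second subunits Prim2, Pold2 and Pole2 did not pass, with changes from -0.16 for Pole2 to 0.26 for Pold2.

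Pcna, the sliding clamp, had 13.20 and 13.24 log2 on Tgif1 KD arrays, against 13.45 and 13.44 on shControl arrays. The arrays did not overlap, and Pcna fell by 0.22 ± 0.07 (adjusted p = 0.0212). None of the 5 clamp loader genes passed through the probe set used, with changes from -0.29 for Rfc3 to 0.05 for Rfc5. Second probe sets of 2 of them did, with -0.52 ± 0.08 for Rfc4 (adjusted p = 3.30e-04 over all probe sets) and -0.31 ± 0.09 for Rfc3 (adjusted p = 0.0235).

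The 3 subunits of the single-strand binding protein RPA did not all move the same way. Rpa1, the large subunit, had 12.38 and 12.37 log2 on Tgif1 KD arrays, against 12.89 and 12.83 on shControl arrays, and fell by 0.49 ± 0.07 (adjusted p = 6.22e-05). Rpa2, the middle subunit, came close to the threshold but did not pass (-0.20 ± 0.07, adjusted p = 0.0541). Its second probe set gave 0.20 ± 0.17, which did not pass either (adjusted p = 0.456 over all probe sets). Rpa3, the small subunit, rose by 0.34 ± 0.06 (adjusted p = 0.00116). The lagging-strand genes Fen1, a flap nuclease (-0.34 ± 0.17), and Lig1, the nick-sealing ligase (-0.14 ± 0.08), did not pass.

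Of the 5 genes of nucleotide supply, 2 fell. Dut, the dUTPase that keeps uracil out of DNA, had 11.02 and 10.96 log2 on Tgif1 KD arrays, against 11.74 and 11.74 on shControl arrays. Its change of -0.75 ± 0.08 (adjusted p = 8.87e-06) left 59.4% of the control signal, and its second probe set gave -0.87 ± 0.11. Tk1, the thymidine kinase of the salvage pathway, had 9.48 and 9.51 on Tgif1 KD arrays, against 9.97 and 10.06 on shControl arrays, a change of -0.52 ± 0.11 (adjusted p = 0.0023). Neither subunit gene of ribonucleotide reductase passed, with 0.06 ± 0.08 for Rrm1 and 0.11 ± 0.09 for Rrm2. Tyms, thymidylate synthase, averaged 4.18 log2 over the 16 arrays, near the dim end of the scale, and gave -0.14 ± 0.19.

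All 3 genes of S-phase entry passed, and the cyclin E genes moved in opposite directions. Ccne1 had 10.55 and 10.62 log2 on Tgif1 KD arrays, against 11.05 and 11.14 on shControl arrays, and fell by 0.51 ± 0.08 (adjusted p = 3.70e-04). Ccne2 had 8.60 and 8.69 on Tgif1 KD arrays, against 7.97 and 7.83 on shControl arrays, and rose by 0.74 ± 0.16 (adjusted p = 0.0023). Neither gene's groups overlapped. E2f1, the activating E2F, had 7.89 and 7.84 on Tgif1 KD arrays, against 8.10 and 8.32 on shControl arrays, and fell by 0.34 ± 0.11 (adjusted p = 0.0352). A second E2f1 probe set gave -0.26 ± 0.10, which did not pass (adjusted p = 0.0695 over all probe sets).

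**Figure D1:**
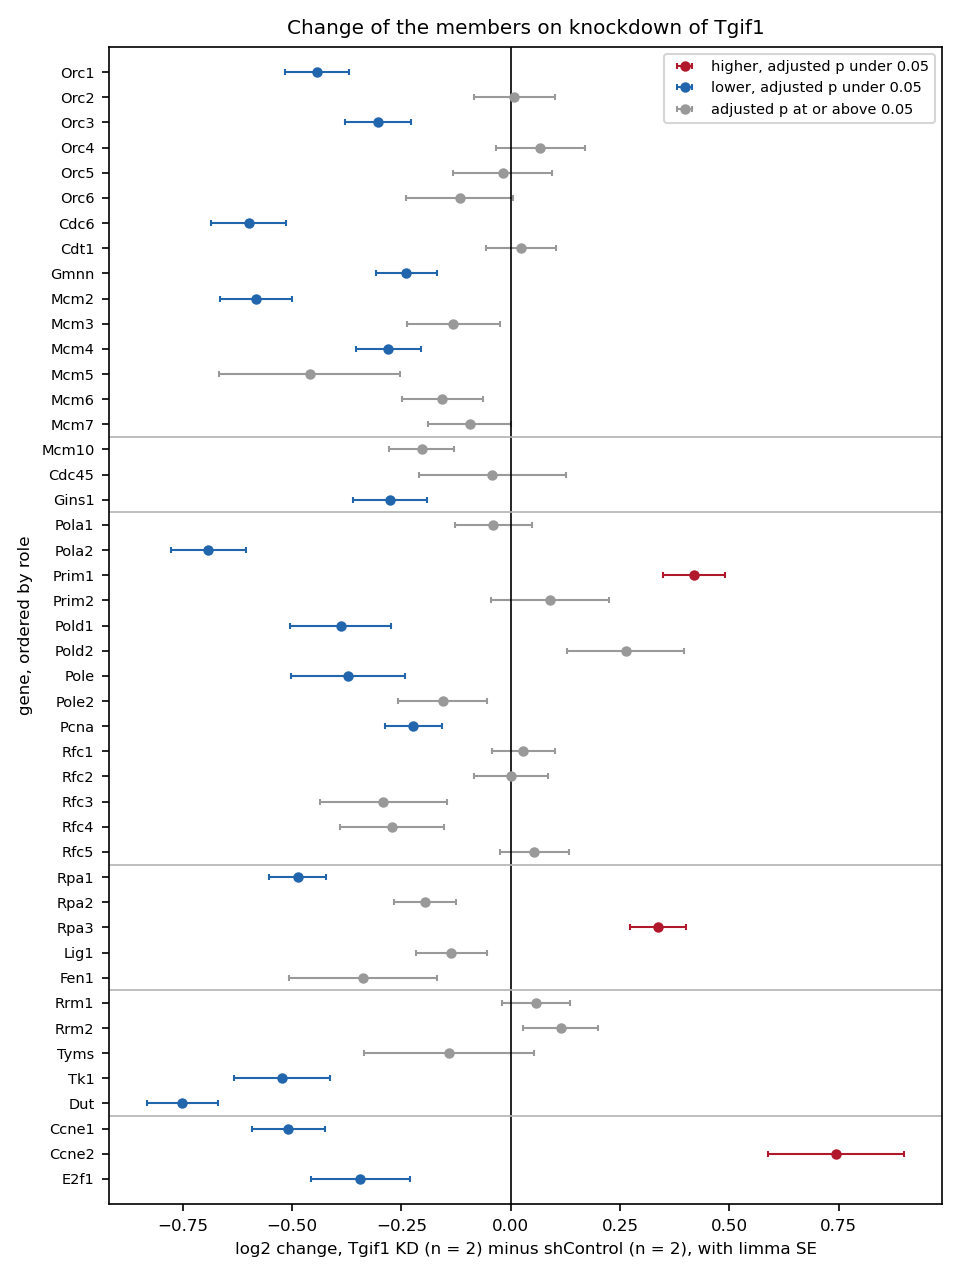
Log2 change of each of the 45 genes, Tgif1 KD minus shControl (horizontal axis, n = 2 arrays a group), with bars for the limma SE and grey lines between the roles. The 16 genes that fell lie left of 0 and the 3 that rose, Prim1, Rpa3 and Ccne2, lie right of it; grey points did not pass.

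With 2 arrays a group, no overlap between groups is common: 86.7% of the replication genes had none, and so did 69.2% of all genes. Of the 19 calls, 12 held when any 1 of the 4 arrays was left out: Orc1, Orc3, Cdc6, Mcm2, Pola2, Rpa1, Tk1, Dut and Ccne1 as lower, and Prim1, Rpa3 and Ccne2 as higher. The other 7, which were Gmnn, Mcm4, Gins1, Pold1, Pole, Pcna and E2f1, were lost in at least 1 of these fits. Without Tgif1 KD replicate 2 the count was 12.

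Other measures also differed between the arms of this comparison. The signal near the 5′ end minus that near the 3′ end of Gapdh was -0.10 and -0.08 log2 on Tgif1 KD arrays, against -0.21 and -0.22 on shControl arrays, and for Actb it was -0.52 and -0.49, against -0.61 and -0.67. The summed signal of 12 primitive endoderm markers was 12.41 and 12.48 log2 on Tgif1 KD arrays, against 11.92 and 11.92 on shControl arrays, with 5 of the 12 higher and none lower. For 10 ES cell markers it was 16.15 and 16.19, against 15.95 and 15.96, with 2 higher and none lower. Of 17 fibroblast markers 2 were higher and 1 lower, of 11 trophectoderm markers 1 and 1, and none of 7 blood markers passed. Shares past the threshold were 41.7% for primitive endoderm, 20% for ES cell, 17.6% for fibroblast and 18.2% for trophectoderm markers. The share of all genes was 25.4%, so the primitive endoderm list alone was above it. The part of these differences in the changes of the replication genes was not tested.

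A second list of replication genes, which holds none of the 45, went the same way on knockdown: of 33 measured, 14 fell and 2 rose, with a median of -0.20 log2. Of this list 48.5% passed, 42.4% as lower, against 25.4% and 12.9% of all genes. The largest falls were those of Slbp, the histone mRNA binding protein (-0.71 ± 0.09), Recql4, a helicase of replication start (-0.64 ± 0.09) and Samhd1, a dNTP hydrolase (-0.59 ± 0.07). The 2 that rose were Top1, topoisomerase I (0.74 ± 0.16), and Pold4, the small subunit of polymerase delta (0.52 ± 0.16), which was added to the named genes after its value was seen.

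Regulators of the G1/S step changed in both directions, 9 higher and 5 lower of 29 measured (48.3%, against 25.4% of all genes). Ccnd2, cyclin D2, had 4.88 and 5.38 log2 on Tgif1 KD arrays, against 8.49 and 8.44 on shControl arrays, a change of -3.34 ± 0.23 (adjusted p = 1.37e-07). Ccnd1, cyclin D1, fell by 1.06 ± 0.14 and Myc, a growth-promoting transcription factor, by 1.07 ± 0.11. Of genes for brakes on this step, Rb1, the retinoblastoma protein (1.25 ± 0.16), and Cdkn1a, a CDK inhibitor (0.59 ± 0.12), rose. Ccnd3, cyclin D3, rose as well (0.79 ± 0.17). Of 32 mitosis genes, 6 fell and 3 rose (28.1%, near the share of all genes), with a median of -0.02 log2, close to that of all genes. Pttg1, securin, fell most (-0.82 ± 0.08).

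Many replication genes are textbook targets of E2F factors, so the promoters of the 45 were searched for E2F words. RefSeq promoters on GRCm38.p6, each running from 250 bases before to 50 bases after a transcript start, matched 38 of the 45 genes; Pole, Gins1, Prim2, Gmnn, Mcm4, Rfc2 and Ccne2 had no entry. The words were TTTGGCGC, TTTGCCGC, TTTCGCGC and TTTCCCGC, searched on both strands, and CCAAT, also on both strands. An E2F word stood in 13 of the 38 genes (34.2%), against 2.60% of all genes in the table, and CCAAT in 22 (57.9%), against 41.1% of all genes. A match is a run of letters, not a measured binding site.

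The windows below show the words, in capitals with up to 8 flanking bases, for the 4 genes that hold one and fell on knockdown, and for Mcm5, Mcm6 and Pola1, which hold one and did not pass on knockdown. Each is written 5′ to 3′ on the strand of its gene, and a word on the opposite strand appears as its reverse complement. Cdc6 lies at chr11:98908005-98908028 (plus strand), Orc1 at chr4:108579419-108579442 (plus), Orc3 at chr4:34614968-34614991 (minus), Pold1 at chr7:44548766-44548784 (minus, at the downstream end of the promoter), Mcm5 at chr8:75109348-75109371 (plus), Mcm6 at chr1:128359800-128359823 (minus) and Pola1 at chrX:93632278-93632301 (minus). In Mcm5 and in Mcm6 a TTTCGCGC and a TTTGGCGC on opposite strands share 4 bases, of which 1 word is in capitals here.
Cdc6: ggtggagaGCGGGAAAtcgcctgg
Orc1: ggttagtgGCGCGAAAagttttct
Orc3: tgcctcccTTTCCCGCacgccccg
Pold1: atcttgtgGCGGGAAAagc
Mcm5: ccaagaacTTTCGCGCcaaaacgt
Mcm6: cgtatgctTTTGGCGCgaaaagtg
Pola1: atcacaggGCGCCAAAtgcactcc

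On knockdown 4 of the 13 genes with a word and 8 of the 25 without one were lower, and the median changes were -0.16 and -0.14 log2. Some members have starts at the outer ends of their annotated genes. Of these, Ccne1 and Pold1 held no E2F word and no CCAAT in the 250 upstream bases, which are not shown. Mcm2 and Prim1, also of these members, moved in opposite directions and held no E2F word and 1 CCAAT each. Their 250 upstream bases are given here with CCAAT, or ATTGG where it lies on the opposite strand, in capitals, for Mcm2 at chr6:88898781-88899030 (minus strand) and for Prim1 at chr10:128014965-128015214 (plus strand).
Mcm2: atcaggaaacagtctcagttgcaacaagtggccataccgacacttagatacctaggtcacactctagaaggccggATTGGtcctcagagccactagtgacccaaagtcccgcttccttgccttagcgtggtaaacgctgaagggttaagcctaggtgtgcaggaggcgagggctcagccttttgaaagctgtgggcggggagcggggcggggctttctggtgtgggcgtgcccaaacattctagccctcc
Prim1: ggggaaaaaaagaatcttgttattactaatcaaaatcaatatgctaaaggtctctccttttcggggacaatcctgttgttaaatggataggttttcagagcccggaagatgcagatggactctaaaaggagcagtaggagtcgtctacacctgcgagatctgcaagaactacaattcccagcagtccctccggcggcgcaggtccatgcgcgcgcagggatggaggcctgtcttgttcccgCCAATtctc

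On the arrays labelled Tgif1 OE, 11 of the 45 genes were lower and 2 higher than on BirA control arrays, and 32 did not pass; 28.9% passed, against 20.9% of all genes, and 24.4% were lower, against 9.51% of all genes. The median change was -0.06 log2, against 0.01 for all genes. On 13 genes every array labelled Tgif1 OE lay below every BirA control array, which is 28.9% of the set, against 10.6% of all genes, and on none did every one lie above.

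Polymerase alpha and primase again held leading changes, here in Pola1 and Prim1 and not in Pola2. Pola1, the catalytic subunit, had 9.65, 9.46, 9.52 and 9.49 log2 on the arrays labelled Tgif1 OE, against 9.97, 10.03, 9.94 and 10.00 on BirA control arrays. Prim1 had 10.51, 10.53, 10.56 and 10.52 on the arrays labelled Tgif1 OE, against 10.96, 10.94, 10.82 and 10.87 on BirA control arrays. Neither gene's groups overlapped. The changes were -0.46 ± 0.06 for Pola1 (adjusted p = 1.06e-04) and -0.36 ± 0.05 for Prim1 (adjusted p = 1.15e-04), while Pola2 gave -0.01 ± 0.06 (adjusted p = 0.917).

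Orc1 had 9.22, 9.23, 9.34 and 9.22 log2 on the arrays labelled Tgif1 OE, against 9.59, 9.69, 9.60 and 9.62 on BirA control arrays, and was lower by 0.37 ± 0.05 (adjusted p = 1.42e-04). Rfc4, a subunit of the clamp loader, had 10.44, 10.44, 10.34 and 10.29 on the arrays labelled Tgif1 OE, against 10.80, 10.82, 10.54 and 10.69 on BirA control arrays. The groups did not overlap for either gene, and the change of Rfc4 was -0.33 ± 0.08 (adjusted p = 0.0102). Rfc5, another loader subunit, had 11.75, 11.66, 11.73 and 11.68 on the arrays labelled Tgif1 OE, against 11.84, 11.86, 12.01 and 12.00 on BirA control arrays, a change of -0.22 ± 0.06 (adjusted p = 0.0103).

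Rpa2 had 11.02, 11.03, 11.00 and 10.96 log2 on the arrays labelled Tgif1 OE, against 11.22, 11.25, 11.19 and 11.12 on BirA control arrays, and was lower by 0.20 ± 0.05 (adjusted p = 0.0109). Rpa1 was lower by 0.15 ± 0.05 (adjusted p = 0.0316), and Rpa3 did not pass (-0.02 ± 0.05). Tk1 had 9.51, 9.38, 9.32 and 9.32 on the arrays labelled Tgif1 OE, against 9.52, 9.68, 9.69 and 9.68 on BirA control arrays, a change of -0.26 ± 0.08 (adjusted p = 0.0270). The groups did not overlap, but Tgif1 OE replicate 1, at 9.51, lay next to BirA control replicate 1, at 9.52.

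Cdt1 had 12.41, 12.40, 12.32 and 12.38 log2 on the arrays labelled Tgif1 OE, against 12.49, 12.46, 12.66 and 12.61 on BirA control arrays, a change of -0.18 ± 0.06 (adjusted p = 0.0379). Lig1 (-0.18 ± 0.06, adjusted p = 0.0400) and Mcm10 (-0.16 ± 0.05, adjusted p = 0.0457) were also lower. The 2 genes that were higher were Dut (0.18 ± 0.06, adjusted p = 0.0321) and Ccne2 (0.37 ± 0.11, adjusted p = 0.0276). A second Dut probe set gave 0.10 ± 0.07, which did not pass (adjusted p = 0.431 over all probe sets).

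Other leading genes of the set did not pass here. Mcm2 had 11.19, 11.18, 11.11 and 11.07 log2 on the arrays labelled Tgif1 OE, against 11.16, 11.09, 11.11 and 11.19 on BirA control arrays, and the groups overlapped throughout. Pcna (-0.01 ± 0.05), Gmnn (-0.01 ± 0.05), E2f1 (0.01 ± 0.08) and Ccne1 (0.00 ± 0.06) likewise gave changes smaller than their errors. Cdc6, lower on knockdown, gave -0.10 ± 0.06 (adjusted p = 0.274). Through the probe set used, changes of all 32 genes that did not pass lay between -0.29 for Cdc45 and 0.17 for Rfc3. Other probe sets of some of them passed as lower, with p-values adjusted over all probe sets. These were of Rrm2 (-0.59 ± 0.10, adjusted p = 7.05e-04, and -0.24 ± 0.06, adjusted p = 0.0112) and Rrm1 (-0.54 ± 0.12, adjusted p = 0.00385). Mcm3 (-0.31 ± 0.07, adjusted p = 0.0049), Prim2 (-0.29 ± 0.07, adjusted p = 0.00589) and Rfc1 (-0.20 ± 0.06, adjusted p = 0.028) also had one. None passed as higher.

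All 13 called genes kept their sign within replicates 1 and 2 and within replicates 3 and 4. Their sizes were close for Pola1 (-0.45 and -0.47 log2), Orc1 (-0.42 and -0.33), Prim1 (-0.42 and -0.30) and Rfc4 (-0.37 and -0.30). They were far apart for Ccne2, with 0.05 within replicates 1 and 2 and 0.68 within replicates 3 and 4, where the Ccne2 signal of the BirA control arrays themselves was 0.44 log2 lower than in replicates 1 and 2.

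The count of 13 moved with the way the 2 sets of arrays entered the fit. With the sets as a fixed term 21 genes passed (4 higher, 17 lower), and with the sets within each group as a random block 4 passed, all lower: Orc1, Pola1, Prim1 and Rfc4. In separate fits 5 passed within replicates 1 and 2 and 18 within replicates 3 and 4. With the replicate number as a block 17 passed; Mcm10 was lost (adjusted p = 0.0522), and Cdc45 (-0.29 ± 0.06), Prim2 (-0.24 ± 0.06), Pold2 (-0.21 ± 0.07), Rrm2 (-0.17 ± 0.05) and Tyms (-0.23 ± 0.07) were gained as lower. Of these 5, Cdc45 alone also passed on the means of each set of arrays, and none passed with the sets within each group as a random block. The count fell to 6 without Tgif1 OE replicate 3 or without replicate 4, to 7 without BirA control replicate 3, and to 8 when Tgif1 OE replicate 2 or BirA control replicate 4 was left out. After centring each array on the median of all genes, 13 were lower and none higher.

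RNA quality measures and marker lists differed between these groups as well. The 5′ minus 3′ signal of Gapdh was -0.24, -0.34, -0.02 and -0.08 log2 on the arrays labelled Tgif1 OE, against -0.11, -0.13, -0.05 and -0.04 on BirA control arrays, so within replicates 1 and 2 it was lower on both arrays labelled Tgif1 OE. For Actb it was -0.58, -0.67, -0.45 and -0.48 on the arrays labelled Tgif1 OE, against -0.54, -0.57, -0.47 and -0.46 on BirA control arrays. The summed signal of 17 fibroblast markers ran from 11.42 to 12.03 log2 on the arrays labelled Tgif1 OE, against 10.89 to 11.13 on BirA control arrays, with 7 higher and 1 lower. That of 11 trophectoderm markers ran from 11.50 to 12.46, against 10.19 to 10.41, with 4 higher and 1 lower. For 10 ES cell markers it ran from 15.56 to 15.70, against 15.78 to 15.91, with 6 lower and none higher. Of 12 primitive endoderm markers 2 were higher and 1 lower, and none of 7 blood markers passed. Shares past the threshold were 47.1% for fibroblast, 45.5% for trophectoderm, 60% for ES cell and 25% for primitive endoderm markers, against 20.9% of all genes. The part of these measures in the changes of the replication genes was not tested.

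Outside the 45, 2 of the 33 further replication genes were lower on the arrays labelled Tgif1 OE and none higher: Pole4, a polymerase epsilon subunit (-0.31 ± 0.07), and Dnmt1, the maintenance DNA methyltransferase (-0.17 ± 0.05). These calls were 6.06% of the list, a smaller share than the 9.51% of all genes that were lower and the 20.9% that passed. The excess of lower calls among the 45 was thus not seen in this list. Its median change was nevertheless like that of the 45, at -0.07 log2, against -0.06 for the 45 and 0.01 for all genes. Changes were below 0 for 69.7% of the list, 68.9% of the 45 and 46.1% of all genes. Among the G1/S regulators 6 were higher and 4 lower of 29 (34.5%, against 20.9% of all genes). Ccnd3 was lower by 1.19 ± 0.12, and of CDK inhibitor genes Cdkn2a was lower by 1.05 ± 0.10 and Cdkn1b by 0.70 ± 0.15, while Cdkn1c (1.18 ± 0.13) and Cdkn1a (0.31 ± 0.09) were higher. Ccnd1 (0.21 ± 0.10, adjusted p = 0.162) and Ccnd2 (0.23 ± 0.16, adjusted p = 0.375) did not pass. Mitosis genes gave 7 lower and 1 higher of 32 (25%, against 20.9% of all genes). Pttg1, securin, was higher by 0.43 ± 0.06 (adjusted p = 1.08e-04) and Nusap1, a spindle protein, lower by 0.38 ± 0.06.

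**Figure D2:**
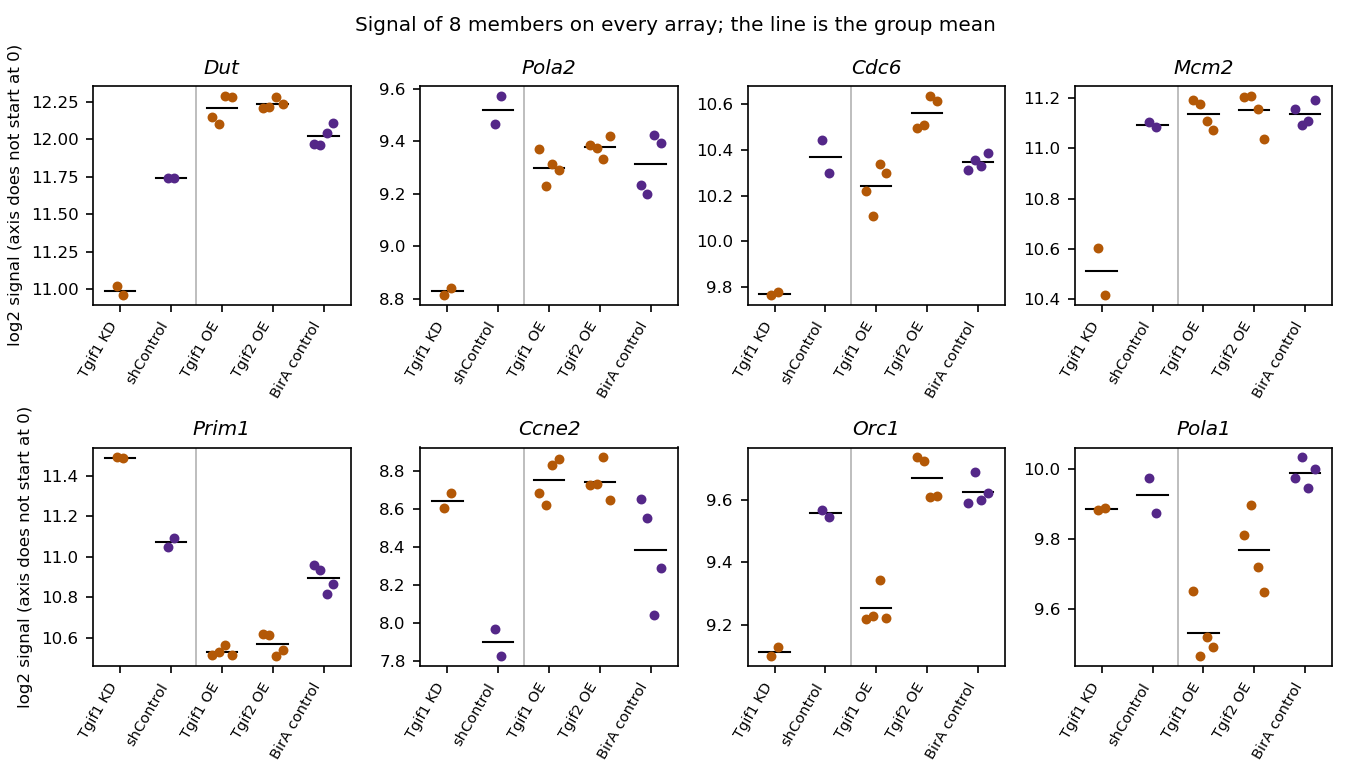
Log2 signal of 8 replication genes on all 16 arrays, with perturbed groups in orange, controls in purple, replicates in order from left to right and a line at each group mean. Dut, Pola2, Cdc6 and Mcm2 are low on the 2 Tgif1 KD arrays alone, Orc1 is low on Tgif1 KD and Tgif1 OE arrays, and Prim1 is high on Tgif1 KD arrays and low on Tgif1 OE and Tgif2 OE arrays.

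The Tgif1 KD comparison shares no array with that of the arrays labelled Tgif1 OE, on which Tgif1 signal was itself 67.1% of the BirA control signal, and the difference between their effects was tested gene by gene. It passed for 14 of the 45 genes (31.1%), against 27.6% of all genes, with 5 higher and 9 lower in the knockdown effect, against 13% and 14.6% of all genes. Of the 19 genes called on knockdown, 11 also passed this test of difference. Dut differed most, at -0.94 ± 0.10 log2 (adjusted p = 6.4e-06). It changed by -0.75 on Tgif1 KD arrays and by 0.18 on the arrays labelled Tgif1 OE, where its second probe set did not pass. Prim1 differed the other way, at 0.78 ± 0.09 (adjusted p = 9.2e-06), and passed in both comparisons. On Tgif1 KD arrays Prim1 had 11.49 and 11.49, against 11.05 and 11.09 on shControl arrays.

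Differences for Pola2 (-0.68 ± 0.10), Mcm2 (-0.58 ± 0.10), Ccne1 (-0.51 ± 0.10), Cdc6 (-0.50 ± 0.10) and Rpa1 (-0.34 ± 0.08) belonged to genes that were lower on knockdown and changed less on the arrays labelled Tgif1 OE. Orc3, Gins1 and Mcm4 made up the rest of the 9, at -0.28 to -0.32. Pola1 (0.42 ± 0.11), Pold2 (0.47 ± 0.16), Rfc5 (0.27 ± 0.10) and Rpa3 (0.36 ± 0.08) were higher in the knockdown effect than in the other. Of the 14 differences, 8 passed whichever 1 of the 12 arrays was left out, those of Cdc6, Mcm2, Pola2, Prim1, Rpa1, Rpa3, Dut and Ccne1. Those of Orc3, Mcm4, Gins1, Pola1, Pold2 and Rfc5 were lost in at least 1 of these fits, and 8 genes passed without shControl replicate 2 and 9 without either Tgif1 KD array. Orc1, Rpa1 and Tk1 were lower in both comparisons and Ccne2 was higher in both. The effects on Orc1 (-0.07 ± 0.09, adjusted p = 0.613) and on Tk1 (-0.26 ± 0.13, adjusted p = 0.159) did not pass as different, which does not show that they were alike.

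**Figure D3:**
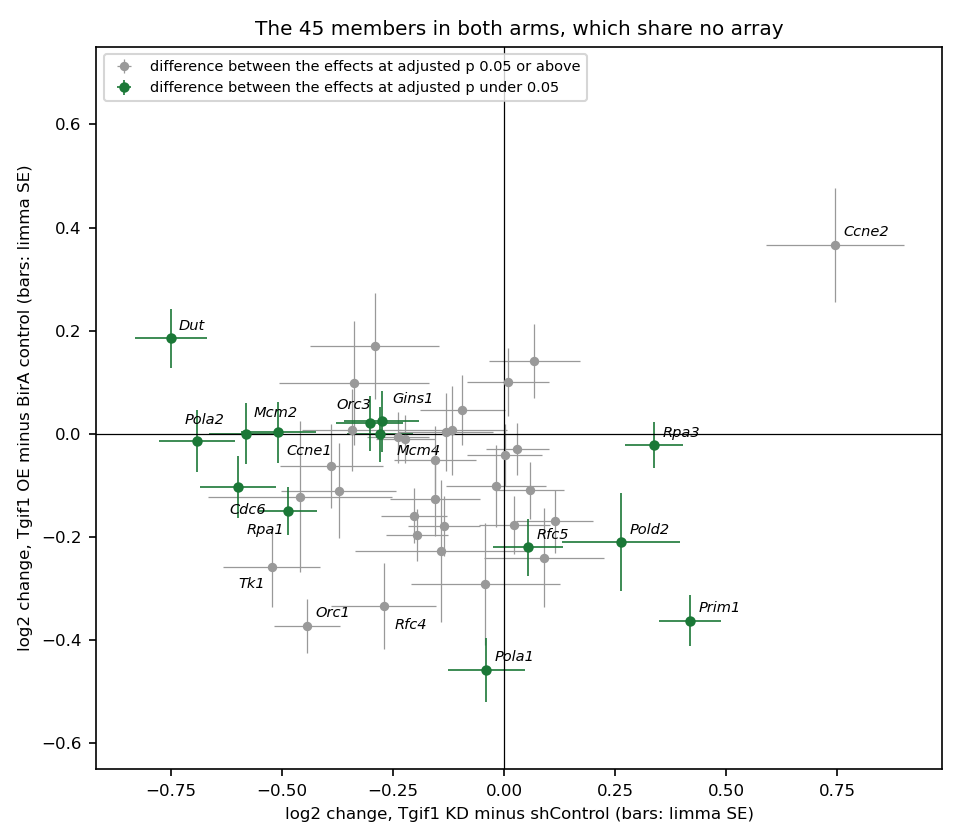
Log2 change of the 45 genes on Tgif1 KD arrays against shControl (horizontal) and on arrays labelled Tgif1 OE against BirA control (vertical), with limma SE bars. The 14 genes in green passed the test of the difference between the effects; Dut lies at the upper left, Prim1 at the lower right and Ccne2 at the upper right.

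The arrays labelled Tgif2 OE gave a result that turned with the scale of the columns. On the deposited values 16 of the 45 genes were higher and 4 lower than on BirA control arrays (44.4%, against 35.4% of all genes, 28.7% as higher and 6.69% as lower), but after quantile normalization of all columns 2 were higher and 10 lower (26.7%, against 26.9% of all genes, 13.8% as higher and 13% as lower). The median of all genes itself was 0.12 log2 on the deposited values, and that of the 45 was 0.09. The 6 genes that passed in the same direction on both scales were Orc4 and Rfc3 as higher, and Orc6, Pola1, Prim1 and Rrm1, the large ribonucleotide reductase subunit, as lower. On the deposited values Orc6, Pola1 and Rrm1 did not pass with replicates 1 and 2 and replicates 3 and 4 within each group as a random block, and Orc6 and Rrm1 were also lost in at least 1 fit without 1 array. Orc4, Rfc3 and Prim1 passed in all of these fits.

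Prim1 had 10.62, 10.61, 10.51 and 10.54 log2 on the arrays labelled Tgif2 OE, against 10.96, 10.94, 10.82 and 10.87 on BirA control arrays, with no overlap. Its change was -0.32 ± 0.05 as deposited (adjusted p = 1.82e-04) and -0.45 ± 0.05 after quantile normalization. Rfc3, a clamp loader subunit, had 9.72, 9.58, 9.92 and 9.95 on the arrays labelled Tgif2 OE, against 9.30, 9.33, 9.36 and 9.43 on BirA control arrays, again with no overlap. The change of Rfc3 was 0.44 ± 0.10 as deposited (adjusted p = 0.0042) and 0.33 ± 0.11 after normalization (adjusted p = 0.0334).

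Orc4, an origin recognition subunit, had 10.30, 10.17, 10.10 and 10.05 log2 on the arrays labelled Tgif2 OE, against 9.88, 9.92, 9.63 and 9.72 on BirA control arrays, and was higher by 0.37 ± 0.07 as deposited; other Orc4 probe sets did not bear this out, as the value was -0.02 when the probe set was chosen by another rule. Orc6, also of that complex, had 10.46, 10.51, 10.20 and 10.26 on the arrays labelled Tgif2 OE, against 10.75, 10.74, 10.44 and 10.47 on BirA control arrays. Orc6 was lower within replicates 1 and 2 and within replicates 3 and 4, with a change of -0.24 ± 0.09 as deposited (adjusted p = 0.0440) and -0.36 ± 0.08 after normalization.

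The remaining 14 deposited calls of higher signal, Gins1, Mcm3, Cdc6 and Ccne2 among them, did not pass after normalization, and Pold2, Rfc4, Rfc5, Rpa1, Lig1 and Tk1 passed as lower after it alone. Among these Rfc4 had the largest value after it (-0.32 ± 0.08, adjusted p = 0.00847). The 5′ minus 3′ signal of Gapdh was -0.17, -0.19, -0.04 and -0.06 log2 on the arrays labelled Tgif2 OE, against -0.11, -0.13, -0.05 and -0.04 on BirA control arrays. Fibroblast markers summed to 11.52 to 12.09 log2 on the arrays labelled Tgif2 OE, against 10.89 to 11.13 on BirA control arrays, with 7 of 17 higher on the deposited values and 3 after normalization. Trophectoderm markers summed to 10.95 to 12.09 on the arrays labelled Tgif2 OE, against 10.19 to 10.41 on BirA control arrays, with 7 of 11 higher and 1 lower as deposited and 5 and 1 after normalization. Of 12 primitive endoderm markers 6 were higher and 2 lower as deposited, and 3 and 2 after normalization, while 10 ES cell markers gave 2 higher and 1 lower, then none higher and 3 lower, and 7 blood markers gave no call on either scale. As deposited, 41.2% of fibroblast, 72.7% of trophectoderm, 66.7% of primitive endoderm and 30% of ES cell markers passed, against 35.4% of all genes. The part of these measures in the changes was not tested.

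The other lists turned with the scale too. Of the 33 further replication genes 8 were higher and 1 lower as deposited, against 1 higher and 5 lower after normalization. The 29 G1/S regulators gave 6 higher and 4 lower as deposited, against 5 higher and 6 lower after normalization. As deposited, 27.3% of the further replication genes and 34.5% of these regulators passed, against 35.4% of all genes.

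**Figure D4:**
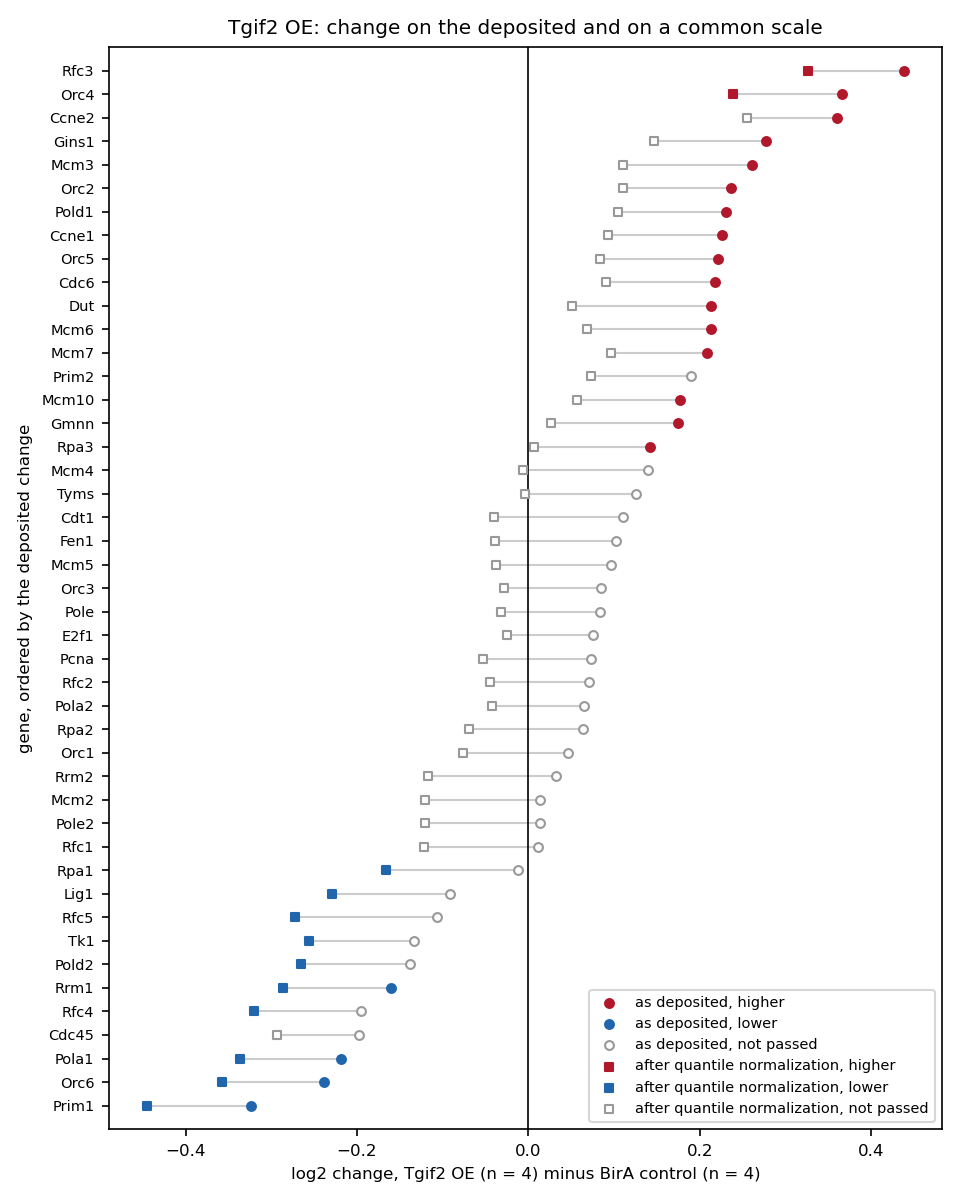
Log2 change of the 45 genes, Tgif2 OE minus BirA control (n = 4 each), as deposited (circles) and after quantile normalization (squares), with calls filled red for higher and blue for lower. Every square lies left of its circle, and 16 red circles stand against 2 red squares.

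The arrays labelled Tgif1 OE and Tgif2 OE share their BirA control arrays, so their values are given side by side. The change of Pola1 was -0.46 log2 in Tgif1 OE and -0.22 in Tgif2 OE, that of Prim1 -0.36 and -0.32, and that of Orc1 -0.37 and 0.05. In the direct comparison 18 of the 45 genes were lower on the arrays labelled Tgif1 OE than on those labelled Tgif2 OE and none higher on the deposited values (40% of the set, against 17.4% of all genes as lower, 2.25% as higher and 19.7% in either direction). After quantile normalization 4 passed (8.89%, against 9.97% of all genes): Orc1 and Mcm10 as lower, and Orc6 and Rrm1 as higher on the arrays labelled Tgif1 OE. Orc1 had 9.22, 9.23, 9.34 and 9.22 on the arrays labelled Tgif1 OE, against 9.74, 9.72, 9.61 and 9.61 on those labelled Tgif2 OE, which did not overlap, and differed by -0.42 ± 0.05 as deposited (adjusted p = 1.66e-04).

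**Figure D5:**
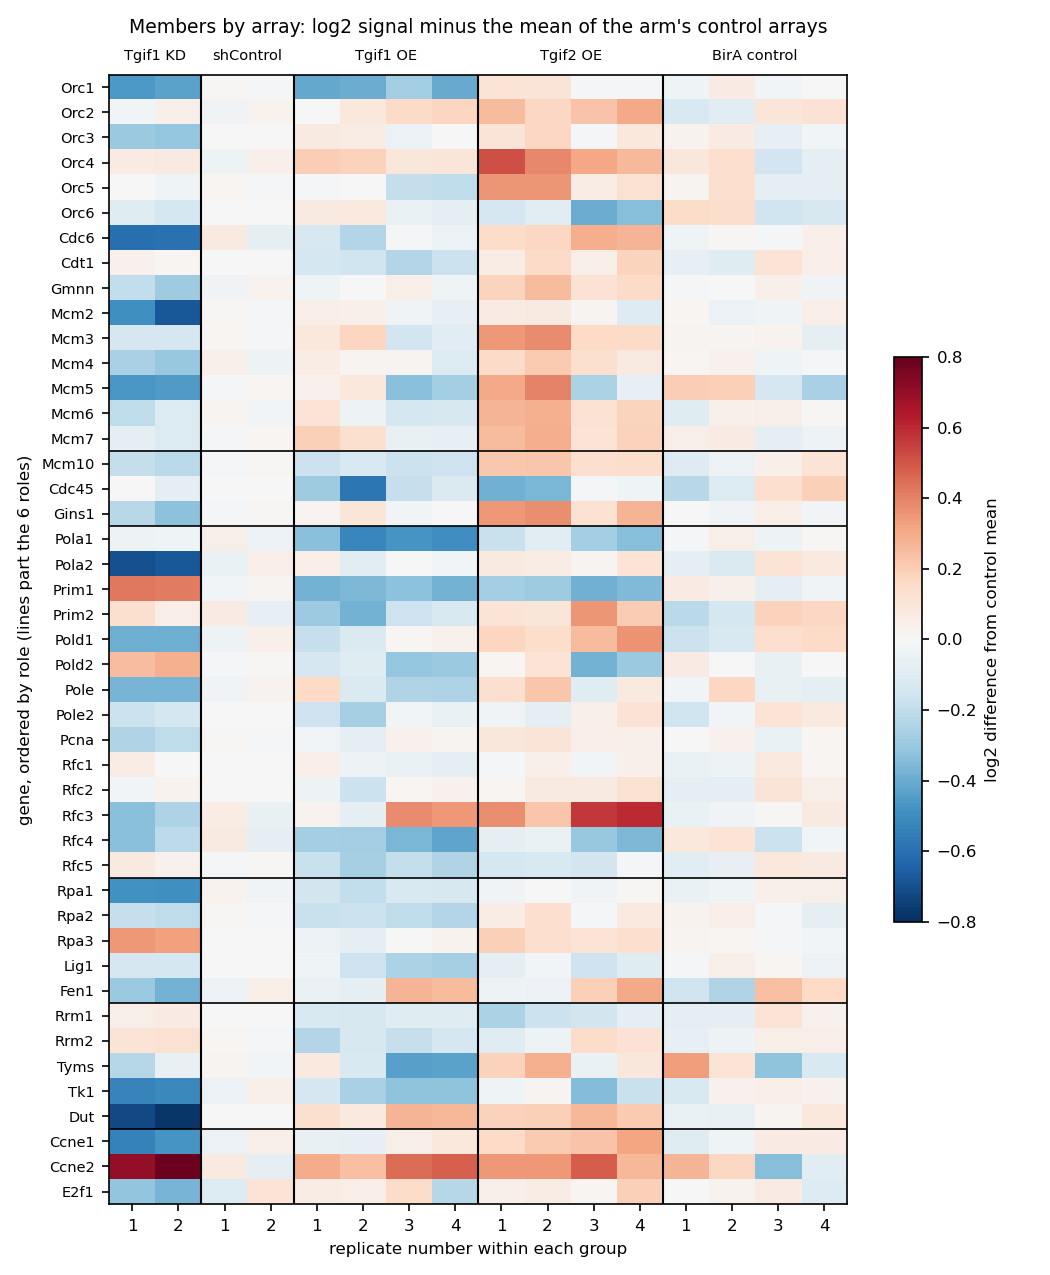
Log2 signal of the 45 genes (vertical, in 6 roles) on each of the 16 arrays (horizontal, by group and replicate), minus the mean of the control arrays of the same arm. Blue runs through most of the Tgif1 KD columns, with Prim1, Pold2, Rpa3 and Ccne2 in red; replicates 1 and 2 differ from replicates 3 and 4 of the overexpression arm in Mcm5, Fen1, Tyms and Ccne2 among others.

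Across the 3 comparisons with a control, 35 of the 45 genes (77.8%) passed in at least 1 on the deposited values, against 52.8% of all genes. In all of them 3 passed (6.67%, against 6.11% of all genes): Prim1, Dut and Ccne2. Of these, Dut and Ccne2 lost their Tgif2 OE calls after quantile normalization. They also lost their Tgif1 OE calls after median centring and with the sets of arrays within each group as a random block. Prim1 kept its calls in these fits. The 10 that passed in none through the probe set used were Mcm5, Cdc45, Prim2, Pold2, Pole2, Rfc1, Rfc2, Fen1, Rrm2 and Tyms. Other probe sets of Rrm2, Prim2 and Rfc1 did pass as lower on the arrays labelled Tgif1 OE.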

How the data were processed

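Expression was measured on 16 single-colour arrays. The authors deposited a log2 intensity for each probe set, for which the submitters' processing notes name RMA, and also limma for the Tgif2 OE samples; no version is given. RMA corrects background, normalises and summarises probes, and the Tgif2 OE columns had a mean 0.11 log2 above the other 12; the cause of this shift was not tested. Depth has no meaning for arrays, whose number limits the precision.

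In the platform annotation 20380 of 22690 probe sets had 1 gene symbol, 691 had several, 1555 had none and 64 were controls. For each of the 12393 genes the brightest probe set on average was used; a probe set can also bind close relatives of its gene. All 16 arrays entered a single linear model with a mean for each group (limma 3.58.1, R 4.3.3), tested by moderated statistics with Benjamini-Hochberg adjustment across genes. Values after ± are limma standard errors. The fit was tested on simulated data. Tgif2 OE comparisons are given with calls after quantile normalization.

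Replicate numbers were checked as pairs by correlating deviations from the group means. In the overexpression arm same-numbered arrays of different groups gave r from 0.32 to 0.56 in 12 comparisons, so the number was also fitted as a block. Their own number was the best match in 2 of 12. Arrays of the other pair of numbers gave at most -0.32. This opposite sign is no separate observation, since deviations cancel within each group. In the knockdown arm r was -0.0044. Pairing comes from the labels' numbers alone.

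The 45 genes, the other lists and the marker lists were chosen with earlier results of these data known. Every member past the threshold could be named; values on every array are given for up to 8 members a comparison with the largest change, and for Mcm2, Pcna, Cdt1, Gmnn, E2f1 and Ccne1. From the lists of further replication genes, G1/S regulators and mitosis genes, up to 4 genes with the largest change are named, with Cdkn1a and the cyclin D genes, and Pold4 was added after its value was seen. Promoter sequences are RefSeq's. Of the 4 members with the largest change and a promoter, Dut, Pola2 and Cdc6 have starts that do not match the outer end of the annotated gene. Upstream bases were therefore taken from called members with starts at the outer end of the gene. Of these, Mcm2 and Prim1 are shown. Ccne1 and Pold1 also qualified but are not shown, and their upstream bases hold no E2F word and no CCAAT. The windows were picked after the matches were seen.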

Additional observations from a re-analysis of the deposited data

Results flagged for a closer look

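Of 135 groups of 4 arrays, 3 held an array far from the other 3 by Dixon's test at its 95% level, at which chance alone gives about 1 in 20. Orc1 on Tgif1 OE replicate 3 was 9.34 log2, against 9.22 to 9.23 on the other Tgif1 OE arrays, and stayed below all BirA control arrays. Mcm3 on BirA control replicate 4 was 12.28, against 12.37 to 12.38 on the other BirA control arrays. Tk1 on BirA control replicate 1 was 9.52, against 9.68 to 9.69 on the other BirA control arrays, and the Tk1 call of lower signal on the arrays labelled Tgif1 OE was one of the 7 lost in at least 1 fit without 1 array.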

How the results depend on the processing

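Counts are of the 45 genes past the threshold, and medians are of their log2 changes. The counts stand without the share of all genes in the same fit, so they do not show shifts particular to the 45. Tgif1 KD against shControl gave 19, and 18 to 24 in the 8 alternatives that kept all arrays; without 1 array it gave 12 to 15, with medians from -0.19 to -0.14. Its median was -0.14 after quantile normalization, -0.17 after median centring and -0.14 with probe sets averaged. The replicate block gave 24, with Mcm5, Rfc3, Rfc4, Rpa2 and Fen1 added as lower. With averaged probe sets the calls of Mcm4 and Pola2 were lost, and with probe sets chosen by suffix those of Mcm2 and E2f1. Tgif1 OE against BirA control gave 13; it gave 7 from its own groups alone, 21 with replicates 1 and 2 against 3 and 4 as a fixed term, 4 with them as a random block, 5 on their means and 5 within replicates 1 and 2. Its median was -0.10 after median centring, -0.092 with averaged probe sets, -0.094 with probe sets chosen by suffix and -0.11 within replicates 3 and 4. Without 1 array it gave 6 to 12, with medians from -0.096 to -0.047. Tgif2 OE against BirA control gave 20; it gave 12 after quantile normalization, 12 after centring, 13 from its own groups and 6 with the random block, with medians of -0.037 after quantile normalization, -0.046 after centring and 0.12 within replicates 1 and 2. Without 1 array it gave 15 to 19, with medians from 0.071 to 0.12. Tgif1 OE against Tgif2 OE gave 18; it gave 4 after quantile normalization, 6 after centring, 11 from its own groups, 6 with the random block and 9 on means, with medians of -0.0015 after quantile normalization and -0.047 after centring. Without 1 array it gave 13 to 16, with medians from -0.17 to -0.15. The difference between the Tgif1 KD and Tgif1 OE effects gave 14; it gave 22 with the fixed term, 22 within replicates 1 and 2 and 22 within replicates 3 and 4. Without 1 array it gave 8 to 13, with 9 without either Tgif1 KD array and 8 without shControl replicate 2. Signs turned for Mcm10 on the arrays labelled Tgif2 OE (-0.026 with averaged probe sets, -0.23 by suffix) and for Orc4 there (-0.018 by suffix). Between Tgif1 OE and Tgif2 OE they turned for Rpa1 (0.029 after quantile normalization), Orc4 (0.094 by suffix) and Mcm10 (0.028 by suffix). The replicate block lost no call but that of Mcm10 on the arrays labelled Tgif1 OE; with it Tgif2 OE gave 24, Tgif1 OE against Tgif2 OE 24 and the difference of effects 20. The cause of these shifts was not tested.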

Other observations

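Calls of mitosis genes on the arrays labelled Tgif2 OE turned with the scale of the columns. Of 32 measured, 8 were lower and 6 higher than on BirA control arrays on the deposited values, while 28.7% of all genes were higher and 6.69% lower. After quantile normalization 14 were lower and none higher, with a median of -0.21 log2, and 13% of all genes were lower.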
